A study of Mus musculus with 20 samples.

Results

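The transcripts of the mitochondrial genome were followed in bone marrow and kidney of mice given oxaliplatin, a platinum chemotherapy drug that binds DNA. The members are all genes of both count tables whose symbol begins with "mt-", 37 of the 55486 genes in each table. They comprise 13 messenger RNAs, 2 ribosomal RNAs and 22 transfer RNAs. C57BL/6 mice, 10 weeks old at the start, received 10 mg/kg oxaliplatin in 5% dextrose or 5% dextrose alone (vehicle) for 8 weeks. Marrow of the tibia and femur was collected 6 days after dosing ended. Each tissue had 5 vehicle and 5 oxaliplatin libraries, taken here as 1 numbered mouse each, and whether marrow and kidney with one number came from the same mouse is not stated. No genotype or allele differed between the groups. Total counts ranged from 30660153 to 41140527 in bone marrow and from 24393007 to 30925430 in kidney. The marker genes fit the labelled tissues, with summed neutrophil markers of 20587 to 25014 CPM (counts scaled to a common library size by TMM) in vehicle marrow against 0.994 to 1.77 in vehicle kidney. Summed proximal tubule markers were 32614 to 38781 CPM in vehicle kidney, against 643 to 1019 in vehicle marrow, where Aqp1 was the most abundant of them.

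The mitochondrial genome is a small circular DNA present in many copies per cell. Its RNAs are read from both strands as long precursors by the polymerase POLRMT with TFAM, and are released largely by cutting out the transfer RNAs that lie between the other genes. The messenger RNAs encode core subunits of respiratory complexes I, III, IV and V, the ribosomal RNAs build the mitochondrial ribosome, and all other subunits come from nuclear genes. Kidney tubules depend on oxidative phosphorylation and carry many mitochondria, whereas maturing red cells discard theirs.

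In the GRCm38 annotation used here (GENCODE mouse release 21), all 37 genes lay on the mitochondrial chromosome, from position 1 to 15422. Of these, 9 lay on the minus strand, namely mt-Nd6 and 8 transfer RNA genes. Neighbours abutted or overlapped at many borders, so that short stretches belong to more than 1 gene. The longest overlap joined mt-Atp8 and mt-Atp6, subunits of ATP synthase (complex V), and a shorter one joined mt-Nd4l and mt-Nd4 of complex I. The last 60 bases of mt-Atp8 (chrM:7910-7969, plus strand) and of mt-Nd4l (chrM:10114-10173, plus strand) are shown because reads inside the shared bases, in capitals, cannot be given to 1 gene. The overlaps are 43 and 7 bases long.
mt-Atp8: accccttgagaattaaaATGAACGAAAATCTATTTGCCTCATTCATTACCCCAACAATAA
mt-Nd4l: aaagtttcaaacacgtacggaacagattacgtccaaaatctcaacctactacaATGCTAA

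A second limit on counting comes from copies of mitochondrial DNA in the nuclear genome. The authors counted uniquely aligned reads, and a read that fits the mitochondrial gene and a nuclear copy equally well has no unique place. Against the annotated nuclear transcripts, mt-Co2, mt-Atp6, mt-Co3, mt-Nd3 and mt-Nd4l had an exact nuclear copy for 98% to 100% of their 50-base windows. For mt-Nd4 the share was 62.2% and for mt-Co1 51.1%, while mt-Nd2, mt-Nd5 and mt-Rnr2 had 8.19%, 7.61% and 1.04%. No window of mt-Nd1, mt-Nd6, mt-Cytb, mt-Atp8 or mt-Rnr1 had one. Nuclear DNA outside annotated transcripts was not searched. The copies of mt-Co2, mt-Atp6, mt-Co3, mt-Nd3, mt-Nd4l and mt-Nd4 lay in a row on the minus strand of chromosome 1, from Gm28439, which begins at 24611535, to Gm28661, which ends at 24615565. The first 75 bases of mt-Co2 (chrM:7013-7087) are shown because the same 75 bases stood in Gm28661 (chr1:24615491-24615565, minus strand). For mt-Co1 the window with the most differences from Gm13340 is shown (chrM:5788-5862, against chr2:22589113-22589187, minus strand), with the 5 differing bases in capitals. Over its 1545 bases, mt-Co1 was 97.6% identical to Gm13340, with 37 mismatches.
mt-Co2: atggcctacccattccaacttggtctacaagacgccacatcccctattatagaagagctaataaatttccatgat
mt-Co1: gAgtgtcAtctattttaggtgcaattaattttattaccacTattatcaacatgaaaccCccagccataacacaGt
Gm13340: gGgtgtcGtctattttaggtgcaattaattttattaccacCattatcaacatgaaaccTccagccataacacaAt

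The rows of the copies held counts too. In vehicle kidney the mean level was 443 CPM for Gm28661 and 485 CPM for mt-Co2, 426 CPM for Gm10925 and 279 CPM for mt-Atp6, and 371 CPM for Gm28437 and 361 CPM for mt-Co3. Gm13340 had 836 CPM beside 13615 CPM for mt-Co1. Where a pair is identical in sequence, as over most of the first 3 pairs and part of mt-Co1, reads of the mitochondrial RNA and of the nuclear copy cannot be told apart. Counting uniquely aligned reads alone would leave few counts in such pairs, so how their shared reads were assigned is unclear. The annotated levels of mt-Co2, mt-Atp6, mt-Co3, mt-Nd3 and mt-Nd4l are therefore uncertain as levels. Those of mt-Nd4 and mt-Co1 are uncertain in part.

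Levels between genes were compared per kilobase of gene length. In vehicle kidney mt-Co1, the catalytic core of complex IV, stood highest at 8813 ± 479 CPM per kilobase (SD, n = 5). Next were mt-Cytb of complex III at 7286 ± 599 and mt-Nd1 of complex I at 5369 ± 514 CPM per kilobase, and the ranges of these 3 genes over the 5 libraries did not overlap. mt-Nd5, also of complex I, followed at 3062 ± 114, while mt-Nd6, the only messenger RNA of the minus strand, had 262 ± 33.3 CPM per kilobase. The rank of mt-Nd4 against mt-Nd5 is uncertain, since 62.2% of the windows of mt-Nd4 had an exact nuclear copy. mt-Atp8 was the lowest messenger RNA in kidney, at 55.4 ± 9.91 CPM per kilobase, with a range overlapping that of mt-Nd3 at 64 ± 7.07. In vehicle marrow mt-Co1 again stood highest, at 1849 ± 114 CPM per kilobase, and mt-Nd3 lowest, at 8.07 ± 1.88. There mt-Nd1 (909 ± 54.7) and mt-Cytb (824 ± 59.8) had overlapping ranges (860 to 980 and 765 to 920), and mt-Nd5 had 490 ± 49.3, mt-Nd6 170 ± 32.9 and mt-Atp8 20.3 ± 2.32 CPM per kilobase. The 5 messenger RNAs with an almost complete exact nuclear copy were at 710 CPM per kilobase or less in vehicle kidney and at 68.1 or less in vehicle marrow. The ribosomal RNAs, which form the bulk of mitochondrial RNA in cells, had only 281 ± 50.5 (mt-Rnr1) and 54.4 ± 15 (mt-Rnr2) CPM per kilobase in vehicle kidney, and 10.1 ± 4.35 and 8.92 ± 4.09 in vehicle marrow. The sample records describe enzymatic removal of ribosomal RNA before library construction, and whether it covered mitochondrial ribosomal RNA is not stated.

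**Figure D1:**
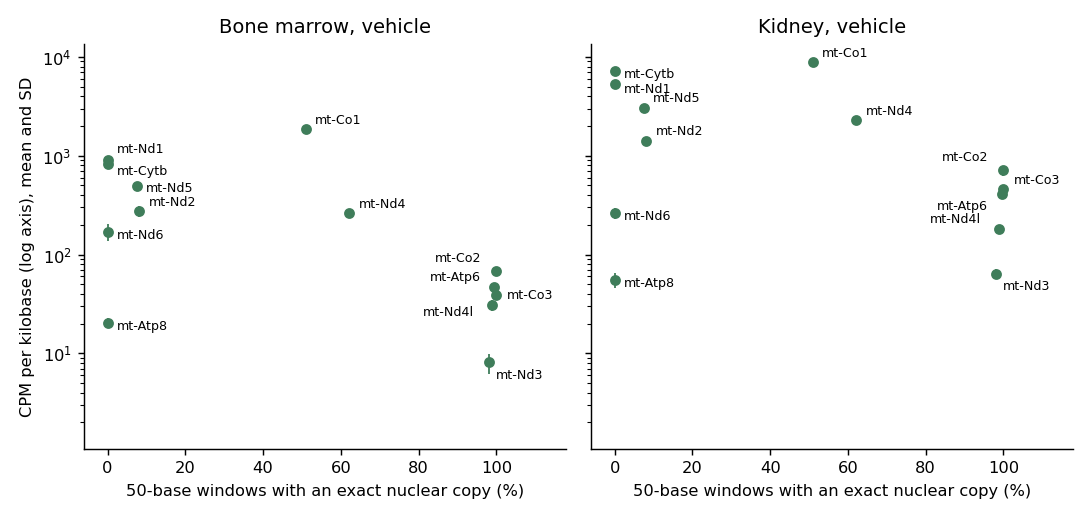
Mean level of the 13 messenger RNAs in the 5 vehicle libraries of each tissue (CPM per kilobase, log axis, bars show SD) against the percent of their 50-base windows with an exact copy among annotated nuclear transcripts. The 5 genes at 98% to 100% lie at or below 710 CPM per kilobase in kidney and 68.1 in marrow. Without such a copy, mt-Atp8 also lies below these levels in both tissues, and mt-Nd6 does so in kidney.

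Messenger RNAs of the mitochondrial genome took 0.659, 0.587, 0.603, 0.587 and 0.612% of all counts in vehicle marrow mice 1 to 5. In oxaliplatin marrow the shares of mice 1 to 5 were 0.693, 0.214, 0.17, 0.764 and 0.588%. Mice 2 and 3 of the oxaliplatin group thus stood apart from all 8 others, while mice 1, 4 and 5 lay within or above the vehicle range. In kidney the shares were 3.68, 3.55, 3.6, 3.75 and 3.85% with vehicle and 3.17, 3.53, 3.42, 4.25 and 3.25% with oxaliplatin. Of the oxaliplatin kidneys, 4 fell below every vehicle kidney and mouse 4 lay above all of them. With TMM scaling the kidney share was 3.59 to 4.2% with vehicle and 3.01 to 3.92% with oxaliplatin, so no treated kidney lay above the vehicle range. Ribosomal RNAs took 0.00117 to 0.00368% of marrow counts with vehicle and 0.000716 to 0.00126% with oxaliplatin, and in kidney 0.0243 to 0.0422% and 0.0169 to 0.0349%. Transfer RNAs took 0.000238 to 0.000399% with vehicle and 8.75e-05 to 0.00042% with oxaliplatin in marrow, and 0.00132 to 0.00241% and 0.0013 to 0.00183% in kidney. The 95% Wilson interval of a library's share reached at most 0.765% of the share itself for messenger RNA, 12.2% for ribosomal RNA and 37.7% for transfer RNA, which covers counting error only. In bulk tissue, fewer mitochondria-rich cells and less mitochondrial RNA per cell cannot be told apart.

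**Figure D2:**
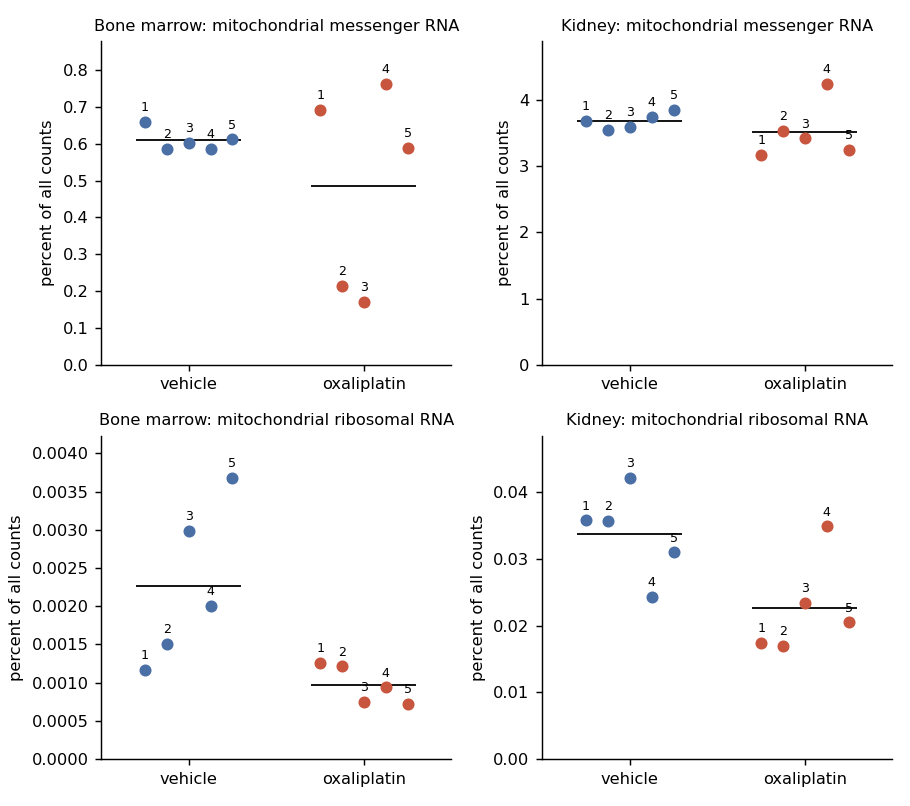
Percent of all counts in mitochondrial messenger RNA (top) and ribosomal RNA (bottom) in each numbered mouse of the 4 groups, with the group mean as a line. Oxaliplatin marrow mice 2 and 3 lie at 0.214% and 0.17% messenger RNA against 0.587% or more in every other marrow library, and the ribosomal shares lie on a scale of hundredths of a percent or less.

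Of the 37 members, 16 passed the filter on low counts in each tissue: the 13 messenger RNAs, both ribosomal RNAs and the transfer RNA mt-Tp. The other 21 transfer RNAs were not tested. Members were read from fits over all genes, with edgeR's quasi-likelihood test and Benjamini-Hochberg adjustment over every tested gene. A gene was called when its fold change exceeded 1.5 and its adjusted p lay under 0.05. Because fold changes here are relative to the TMM scale, scaling by library size alone shifts the median log2 fold change of all genes from -0.038 to 0.108 in marrow and from 0.025 to 0.157 in kidney.

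In bone marrow both ribosomal RNAs were lower after oxaliplatin and no messenger RNA passed the test. mt-Rnr1, the small-subunit ribosomal RNA, had 5.22, 5.64, 12.9, 10.2 and 14.4 CPM in vehicle mice and 4.81, 4.39, 2.19, 2.92 and 2.13 CPM in oxaliplatin mice. The groups did not overlap, although the lowest vehicle and the highest oxaliplatin value lay close together. Its log2 fold change was -1.56 (SE 0.33, adjusted p = 0.00276 by edgeR). mt-Rnr2, the large-subunit ribosomal RNA, had 6.77, 10.2, 18.7, 12.2 and 22.7 CPM with vehicle and 7.37, 7.21, 4.96, 5.52 and 4.8 CPM with oxaliplatin. Here vehicle mouse 1 lay below oxaliplatin mice 1 and 2, and the log2 fold change was -1.24 (SE 0.29, adjusted p = 0.00471 by edgeR). Over all genes 23.3% were called in marrow, 11.8% in the lower direction, and 13.5% were lower with no overlap between the groups. The 2 members called of 16 and the 1 with groups apart are to be read against those shares. At an adjusted p alone the members' count stayed at 2, with 33.1% of all genes passing, 16.8% in the lower direction. Nuclear ribosomal RNA rows summed to 387, 548, 1054, 758 and 1015 CPM in vehicle marrow. In oxaliplatin marrow they summed to 497, 769, 644, 257 and 333 CPM. Most of that came from CT010467.1, which did not pass the test (log2 fold change -0.60, SE 0.35, adjusted p = 0.218 by edgeR). The mitochondrial ribosomal RNAs summed to 12, 15.9, 31.5, 22.4 and 37.1 CPM with vehicle and 12.2, 11.6, 7.16, 8.43 and 6.93 with oxaliplatin. In both sums vehicle mice 1, 2 and 4 were lowest, in that order, whereas the order of the oxaliplatin mice differed. The part of ribosomal RNA removal in these values was not tested.

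All 13 marrow messenger RNAs had negative estimates, from -0.66 to -0.24 on the log2 scale, and their median was -0.46 against -0.038 over all tested genes. These values rest on oxaliplatin mice 2 and 3. mt-Co1 had 2801, 2864, 2799, 3145 and 2673 CPM in vehicle mice and 2772, 824, 638, 2801 and 2369 CPM in oxaliplatin mice. Its log2 fold change was -0.60 (SE 0.37, adjusted p = 0.241 by edgeR). mt-Cytb had 1052, 875, 959, 924 and 902 CPM with vehicle and 995, 295, 251, 1045 and 839 CPM with oxaliplatin. mt-Nd1 had 914, 823, 842, 938 and 834 CPM with vehicle, and 978, 325, 266, 1033 and 829 CPM with oxaliplatin. In each of these genes the same pair of mice was low and the other 3 were near the vehicle range. mt-Nd5 ranged from 795 to 1033 CPM with vehicle (median 899) and had 1010, 316, 219, 994 and 872 CPM with oxaliplatin. mt-Nd6, annotated on the minus strand, had 112, 85.4, 81, 66.2 and 96 CPM with vehicle and 102, 28.2, 18.7, 96.5 and 85.6 CPM with oxaliplatin. The counts of mt-Nd6 were thus low in the same pair of mice, and since strand use in counting is not stated, they may hold RNA of the opposite strand in both tissues. mt-Atp8 had 4.08, 3.9, 3.78, 4.96 and 3.96 CPM with vehicle and 4.15, 1.57, 1.17, 3.03 and 3.15 CPM with oxaliplatin (log2 fold change -0.66, SE 0.30, adjusted p = 0.112 by edgeR). Leaving out oxaliplatin mouse 1 brought mt-Atp8 past the threshold, at -0.89 with an adjusted p of 0.0381 by edgeR, against 0.0381 to 0.226 over the libraries left out in turn.

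With mice 2 and 3 left out together, a choice made after their values were seen, the median over the 16 members was 0.00. Of the messenger RNAs, 7 then had positive estimates, and mt-Cytb, for example, moved from -0.46 to 0.03. mt-Rnr1 (-1.56, adjusted p = 0.0146) and mt-Rnr2 (-1.26, adjusted p = 0.031) were still called by edgeR in that fit, in which 21.7% of 23433 tested genes were called. So the lower ribosomal RNA did not depend on the pair of mice in which the messenger RNA was low.

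**Figure D3:**
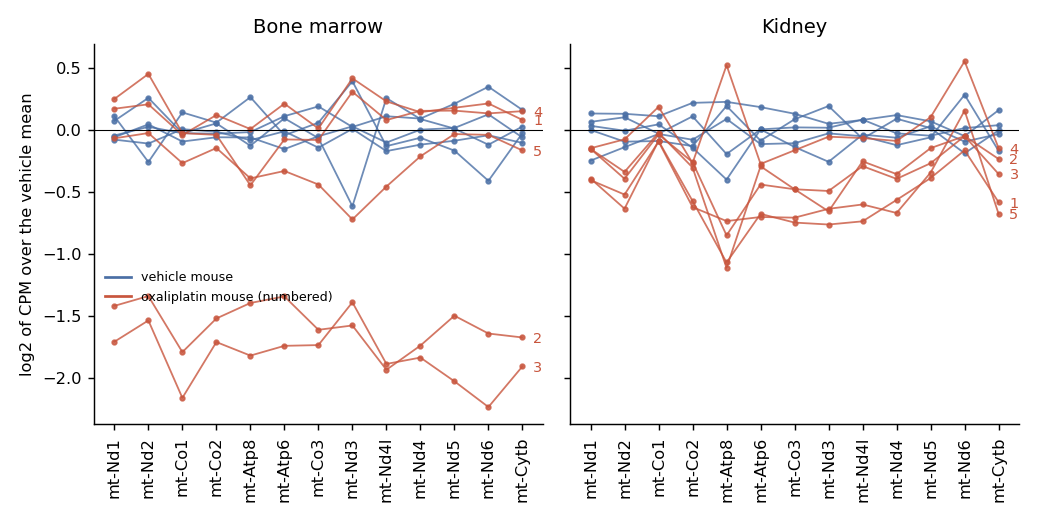
Level of each of the 13 messenger RNAs in each mouse, as log2 of its CPM over the mean of the 5 vehicle mice, genes in genome order, with lines joining the values of 1 mouse. In bone marrow the lines of oxaliplatin mice 2 and 3 lie below all others at every gene, while in kidney the groups lie apart only at mt-Co2, mt-Atp6 and mt-Co3 and overlap at the other 10 genes.

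Other RNAs also moved in marrow mice 2 and 3. Nuclear-retained RNAs, a list of 6 genes led by Malat1, summed to 6109 to 7797 CPM in vehicle mice and to 6798, 3801, 2535, 6800 and 6747 CPM in oxaliplatin mice. The 2 mice low in mitochondrial messenger RNA were thus also the lowest in this sum, whereas mouse 2 was not low among treated mice in mt-Rnr1 or mt-Rnr2. All 6 of these genes were tested and 1, Meg3, was called (log2 fold change 0.98, adjusted p = 0.0188 by edgeR). Late erythroid markers, led by Hba-a1, summed to 32955 to 56633 CPM with vehicle and to 8217, 10970, 6821, 4322 and 6010 CPM with oxaliplatin, so that all 5 treated mice were low and mice 2 and 3 did not stand apart. All 12 of those markers were called lower. Neutrophil markers, led by Ngp, were at 20587 to 25014 CPM with vehicle and 24581, 23119, 10801, 12726 and 29124 CPM with oxaliplatin, low in mice 3 and 4, and 0 of 11 were called (0 also passed the adjusted p alone). Skeletal muscle markers, led by Myh4, were at 11.2 to 116 CPM with vehicle and 436, 374, 886, 49.8 and 405 CPM with oxaliplatin, and 6 of 9 tested were called higher. Adipocyte markers, led by Lpl, rose in all treated mice, from 182 to 268 CPM with vehicle to 2378, 1505, 2278, 2789 and 868 CPM, with 8 of 8 called higher. B cell markers, led by Ebf1, were at 376 to 670 CPM with vehicle and 131, 122, 165, 185 and 106 CPM with oxaliplatin, with 8 of 10 called lower. In neither of these lists did mice 2 and 3 stand apart from the other treated mice. No marker of these lists was at 0. Over all marrow genes 23.3% were called, 11.8% in the lower direction. Further lists also moved with treatment: 8 of 10 early erythroid markers were called lower, and 6 of 6 megakaryocyte and 4 of 6 endothelial markers higher. Of 11 monocyte and macrophage markers 5 were called higher and 2 lower. Values per mouse of these further lists are not given here. The part of nuclear RNA, cell types or RNA quality in the low values of mice 2 and 3 was not tested.

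In kidney, mitochondrial RNAs were lower by a modest amount in most members, with mt-Co1 and mt-Nd6 apart from the rest. Of 16 members, 11 passed an adjusted p under 0.05, all in the lower direction, against 29.4% of all tested kidney genes in either direction and 15% in the lower one. Scaled by library size alone, 7 passed. Only mt-Rnr2 was also beyond 1.5-fold and so called, against 11.5% of all genes called and 3.81% called lower. Without oxaliplatin mouse 4, 5 members were called, mt-Rnr1, mt-Atp8, mt-Co3 and mt-Nd3 besides mt-Rnr2, with 10.9% of all genes called in that fit. The groups did not overlap for mt-Rnr2, mt-Co2, mt-Atp6 and mt-Co3, which is 4 of 16 members against 11% of all genes lower without overlap. The median log2 fold change of the 16 members was -0.40, against 0.025 over all tested genes.

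mt-Cytb had 8133, 7404, 8299, 8547 and 9295 CPM in vehicle kidneys and 5557, 7075, 6505, 7517 and 5206 CPM in oxaliplatin kidneys. The groups overlapped in 1 mouse of each, and the log2 fold change was -0.39 (SE 0.10, adjusted p = 0.00951 by edgeR). mt-Nd1 had 5250, 4322, 5130, 5367 and 5624 CPM with vehicle and 3909, 4615, 4617, 4631 and 3876 CPM with oxaliplatin, a log2 fold change of -0.25 (SE 0.09, adjusted p = 0.0472 by edgeR). Vehicle mouse 2 lay inside the oxaliplatin range of mt-Nd1, and its adjusted p ranged from 0.0162 to 0.127 over the libraries left out in turn. mt-Nd5 had 5691, 5350, 5635, 5399 and 5851 CPM with vehicle and 4261, 5037, 4629, 5987 and 4393 CPM with oxaliplatin. For mt-Nd5 mouse 4 lay above every vehicle kidney, and the change did not pass (log2 fold change -0.20, SE 0.092, adjusted p = 0.113 by edgeR). The other messenger RNAs that passed, mt-Nd2, mt-Co2, mt-Atp6, mt-Co3, mt-Nd3, mt-Nd4 and mt-Nd4l, had log2 fold changes from -0.50 to -0.37. Among these, mt-Co2, mt-Atp6, mt-Co3, mt-Nd3 and mt-Nd4l are the genes with near-complete nuclear copies, and their copies moved with them. Gm28661 had a log2 fold change of -0.42 (SE 0.088) beside -0.40 (SE 0.093) for mt-Co2, and Gm10925 had -0.45 (SE 0.093) beside -0.47 (SE 0.091) for mt-Atp6.

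mt-Co1 did not pass the test in kidney. It had 14024, 13290, 12778, 13310 and 14676 CPM with vehicle and 12784, 13382, 13257, 15465 and 12743 CPM with oxaliplatin. The log2 fold change was -0.01 (SE 0.084, adjusted p = 0.946 by edgeR), and its sign was positive, at 0.13, with library size alone. Its copy Gm13340 had a log2 fold change of -0.02 (SE 0.079). mt-Nd6 had 127, 165, 119, 137 and 131 CPM with vehicle and 121, 131, 131, 199 and 151 CPM with oxaliplatin, a log2 fold change of 0.11 (SE 0.13, adjusted p = 0.56 by edgeR) that was -0.06 with a covariate of Y-linked genes. mt-Atp8 had 8.55, 12, 12.9, 9.86 and 13.2 CPM with vehicle and 5.38, 5.22, 6.26, 16.2 and 6.78 CPM with oxaliplatin. For mt-Atp8, mouse 4 lay above every vehicle kidney and the other 4 treated kidneys below all of them. Its log2 fold change of -0.50 (SE 0.32, adjusted p = 0.27 by edgeR) became -0.92 (adjusted p = 0.000278 by edgeR) without mouse 4, and over all libraries left out in turn its adjusted p ran from 0.000278 to 0.442.

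A ratio within 1 library does not depend on scaling. The ratio of mt-Co1 to mt-Cytb counts was 1.72, 1.8, 1.54, 1.56 and 1.58 in vehicle kidneys and 2.3, 1.89, 2.04, 2.06 and 2.45 in oxaliplatin kidneys. The groups did not overlap, mouse 4 included. This ratio was chosen after the values of both genes were seen and carries no test. In marrow it was 2.66 to 3.4 with vehicle (median 2.96) and 2.55 to 2.82 with oxaliplatin (median 2.79), which overlap. mt-Co1 made up 33.7 to 37% of mitochondrial messenger RNA counts in vehicle kidneys and 38.4 to 42.3% in oxaliplatin kidneys, and mt-Cytb made up 20.6 to 22.1% and 17.3 to 20.3%. The ratio of mt-Nd6 to mt-Cytb was 0.0157, 0.0222, 0.0144, 0.016 and 0.0141 with vehicle and 0.0218, 0.0185, 0.0201, 0.0265 and 0.029 with oxaliplatin, where vehicle mouse 2 lay inside the oxaliplatin range. Mean ratios to mt-Cytb also went from 0.672 to 0.766 for mt-Nd5 and from 0.616 to 0.685 for mt-Nd1. For mt-Co3 the mean went from 0.0434 to 0.0401, and the groups overlapped in each of these ratios.

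**Figure D4:**
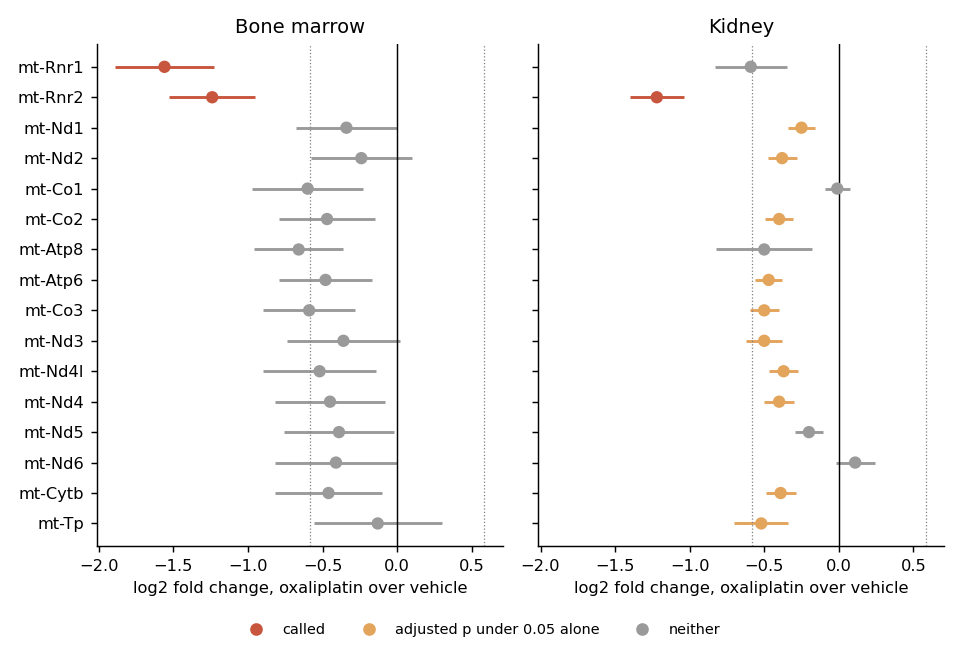
Log2 fold change (oxaliplatin over vehicle) of the 16 tested members in genome order, with bars of 1 SE, dotted lines at 1.5-fold and colours for the outcome of edgeR's test. In bone marrow only mt-Rnr1 and mt-Rnr2 are called and the other bars are long, whereas in kidney mt-Rnr2 is called, 10 further members pass an adjusted p alone, and mt-Co1 and mt-Nd6 sit at zero or above.

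Of the kidney ribosomal RNAs, mt-Rnr2 passed the test and mt-Rnr1 did not, and the difference between them was not tested. mt-Rnr2 had 107, 83, 110, 51.7 and 79.1 CPM with vehicle and 38.3, 34.2, 41, 35 and 36.5 CPM with oxaliplatin. All 5 treated kidneys lay below all vehicle kidneys and close together, with a log2 fold change of -1.22 (SE 0.18, adjusted p = 0.000717 by edgeR). mt-Rnr1 had 271, 278, 334, 199 and 258 CPM with vehicle and 129, 133, 189, 287 and 154 CPM with oxaliplatin. Its treated mouse 4 lay inside the vehicle range and the other 4 below it, and the log2 fold change of -0.59 did not pass (SE 0.24, adjusted p = 0.0972 by edgeR). Without that mouse it was -0.82 (adjusted p = 0.0025 by edgeR), within a range of 0.0025 to 0.208 over the libraries left out in turn. The ratio of mt-Rnr1 to mt-Rnr2 counts was 2.54 to 3.85 in vehicle kidneys and 3.37, 3.89, 4.62, 8.19 and 4.21 in oxaliplatin kidneys, where mouse 1 lay inside the vehicle range. In marrow that ratio was 0.551 to 0.841 with vehicle and 0.441 to 0.652 with oxaliplatin.

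Nuclear ribosomal RNA moved in the same direction in kidney. Its rows summed to 3783, 2054, 2613, 1891 and 2735 CPM with vehicle and 1083, 915, 852, 736 and 797 CPM with oxaliplatin, groups without overlap. CT010467.1 held nearly all of it and fell by 1.58 on the log2 scale (SE 0.18, adjusted p = 9.76e-05 by edgeR). This row was examined after the values were seen. The part of ribosomal RNA removal in the lower mt-Rnr2 was not tested. Treated mouse 4, the lowest for nuclear ribosomal RNA, was the highest treated kidney for mt-Rnr1. For mt-Rnr2 it had 35 CPM, within the treated range of 34.2 to 41 CPM.

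**Figure D5:**
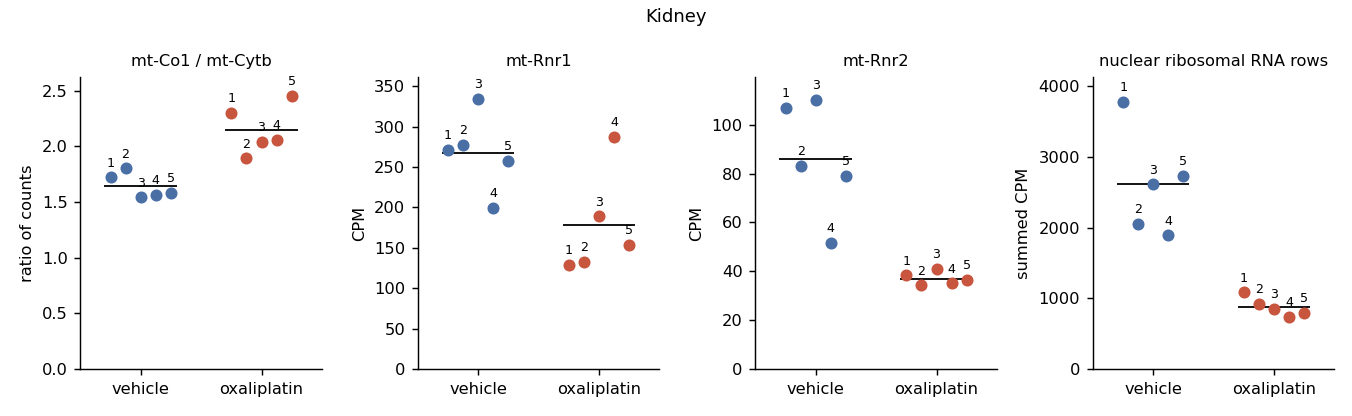
Kidney values in each numbered mouse with the group mean as a line: the ratio of mt-Co1 to mt-Cytb counts, the CPM of mt-Rnr1 and mt-Rnr2, and the summed CPM of nuclear ribosomal RNA rows. The groups do not overlap in the ratio (1.54 to 1.8 against 1.89 to 2.45), in mt-Rnr2 or in nuclear ribosomal RNA, and overlap in mt-Rnr1 through oxaliplatin mouse 4.

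Transfer RNAs, which are short and folded, were nearly absent from the counts. Of 22, 11 had no count in any marrow library and 4 none in any kidney library, where 3 counts, taken as the floor, amount to 0.0668 to 0.0975 CPM in marrow and 0.09 to 0.13 CPM in kidney. mt-Tp, the proline transfer RNA, held 84.4% of the 1018 transfer RNA counts in marrow and 97.2% of the 4650 in kidney. It is the last annotated gene, on the minus strand beside the control region. Next in kidney were mt-Tc (cysteine) with 51 counts in all 10 libraries and mt-Tn (asparagine) with 25, which flank a gap of 32 bases. In marrow mt-Tn had 65, mt-Tm (methionine) 41 and mt-Tc 39 counts, and 39 of those of mt-Tm came from vehicle mouse 2. mt-Tp, mt-Tn and mt-Tc, all on the minus strand, are shown because they were the 3 highest in kidney and were counted in both tissues (mt-Tp at chrM:15356-15422, mt-Tn at chrM:5089-5159, mt-Tc at chrM:5192-5257).
mt-Tp: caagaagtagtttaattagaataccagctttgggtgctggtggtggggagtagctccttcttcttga
mt-Tn: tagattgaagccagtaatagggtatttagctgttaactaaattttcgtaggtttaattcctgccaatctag
mt-Tc: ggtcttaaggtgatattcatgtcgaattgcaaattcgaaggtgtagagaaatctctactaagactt

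mt-Tp had 16.6, 12.8, 21.9, 22.8 and 25.4 CPM in vehicle kidneys and 15.3, 13.7, 17.5, 11.3 and 11.9 CPM in oxaliplatin kidneys. The groups overlapped, and the log2 fold change of -0.52 passed an adjusted p alone (SE 0.18, adjusted p = 0.0445 by edgeR). It lost this without some single libraries, with adjusted p from 0.0033 to 0.121, and was called at -0.64 without vehicle mouse 2 and at -0.61 without oxaliplatin mouse 3. In marrow mt-Tp had 2.09, 2.82, 2.8, 2.71 and 2.18 CPM with vehicle and 3.49, 0.721, 0.699, 3.29 and 3.32 CPM with oxaliplatin. Mice 2 and 3 were again the low ones, and mice 1, 4 and 5 lay above every vehicle mouse (log2 fold change -0.13, SE 0.43, adjusted p = 0.85 by edgeR). Without strand information, reads of mt-Tp cannot be told apart from RNA of the opposite strand.

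The difference between tissues was tested as an interaction in all 20 libraries, kidney change minus marrow change. No member passed among 16 in edgeR's test (0 also with DESeq2, and 1, mt-Rnr1, at an unadjusted p under 0.05), against 30.1% of all genes tested. mt-Rnr1 had a difference of 0.92 on the log2 scale (SE 0.40, adjusted p = 0.0923 by edgeR). Its adjusted p fell to 0.0481 without vehicle marrow mouse 1 and to 0.0497 without vehicle marrow mouse 2, and rose to at most 0.19 without any other single library. mt-Co1 had a difference of 0.55 (SE 0.38, adjusted p = 0.298 by edgeR) and mt-Nd6 one of 0.48 (SE 0.45, adjusted p = 0.459 by edgeR). Without marrow mice 2 and 3 of the oxaliplatin group, 3 members passed, mt-Nd2 (-0.61, adjusted p = 0.0145), mt-Tp (-0.93, adjusted p = 0.0102) and mt-Nd4 (-0.44, adjusted p = 0.0479 by edgeR), against 26.6% of all genes in that fit. These 2 mice were left out because they were low in the same values, so that fit is a description.

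The nuclear genes that act on the mitochondrial genome were read from lists. Of 24 genes for its transcription and replication, 1 was called higher in marrow (Tefm, a transcription elongation factor, at 0.62 on the log2 scale) and 1 lower (Primpol, a primase-polymerase, at -0.96). At an adjusted p alone 1 passed higher and 4 lower there, against 16.8% of all marrow genes lower. In kidney none was called and 5 passed an adjusted p in the lower direction, against 15% of all kidney genes. Tfam, which packages the genome and starts its transcription, was at -0.25 in kidney (SE 0.071, adjusted p = 0.0128 by edgeR, groups apart) and at 0.08 in marrow (adjusted p = 0.743). Polrmt, the polymerase, was at -0.19 in kidney (adjusted p = 0.0973 by edgeR) and -0.06 in marrow (adjusted p = 0.69). Of 41 genes of mitochondrial RNA processing and stability, 40 were tested in marrow, with Rexo2, an RNA-degrading nuclease, called higher (0.63) and Mrm1, a methyltransferase of the large ribosomal RNA, called lower (-1.33). At an adjusted p alone 6 passed higher and 3 lower in marrow, at or below the shares of all marrow genes (16.3% and 16.8%). In kidney 0 of 41 were called and 15 passed an adjusted p, all lower, against 15% of all kidney genes in that direction and 3.81% called lower. Lrpprc, which stabilizes mitochondrial messenger RNAs, was at -0.02 in kidney (adjusted p = 0.854 by edgeR) and -0.11 in marrow (adjusted p = 0.556).

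Among 12 regulators of mitochondrial biogenesis, Ppargc1a, a transcriptional coactivator, was higher in kidney at 0.49 on the log2 scale (SE 0.069, adjusted p = 6.87e-05 by edgeR), short of 1.5-fold. The other 3 that passed in kidney, Esrra (-0.31), Gabpa (-0.26) and Sirt3 (-0.21), named after their values were seen, were lower, and the list median was 0.01. In marrow Ppargc1a was called at 0.93 (adjusted p = 0.0459 by edgeR) at a low level with overlapping groups. Nrf1, a transcription factor for respiratory genes, was called lower there at -0.75 (adjusted p = 6.25e-06 by edgeR). Of the 11 tested in marrow, 2 passed an adjusted p higher and 3 lower, near the shares of all marrow genes (16.3% and 16.8%). Of 21 mitochondrial aminoacyl-tRNA synthetases, Lars2 (-1.36, adjusted p = 3.22e-05) and Ears2 (-0.59, adjusted p = 0.000131) were called lower in kidney and 9 passed an adjusted p in that direction, against 3.81% and 15% of all kidney genes, with none called in marrow. Their products charge transfer RNAs with leucine and glutamate. The values of Lars2, -1.36 in kidney and -0.59 in marrow, lay close to those of the nuclear ribosomal RNA row CT010467.1 (-1.58 and -0.60). Whether reads of ribosomal RNA entered the Lars2 counts was not tested.

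Lists of nuclear partners of the mitochondrially encoded proteins had negative medians in kidney and positive ones in marrow, and few genes were called. In kidney 15 of 36 complex I subunits, 4 of 9 of complex III, 1 of 14 of complex IV and 5 of 16 of complex V passed an adjusted p in the lower direction, and 2 of complex IV in the higher. Over all kidney genes 15% passed lower and 14.4% higher, so complex IV did not stand above the background. Their list medians were -0.22, -0.29, -0.10 and -0.20 on the log2 scale, against 0.025 over all genes. Complex II, which has no mitochondrially encoded subunit, had 3 of 4 genes lower with a median of -0.26. Of 77 tested mitochondrial ribosomal proteins, 46 passed lower and 1, Mrps7, was called (-0.66), with a median of -0.27. Genes of mitochondrial mass, such as citrate synthase and outer membrane channels, had 5 of 11 lower and a median of -0.19. Of 9 mitophagy genes 4 passed lower and 2 higher. Markers of proximal tubule, a mitochondria-rich segment, summed to 32614 to 38781 CPM with vehicle and to 19981, 26896, 26626, 23989 and 19824 CPM with oxaliplatin, with none at 0. Of these 12 markers 5 were called lower, among them Kap, Slc7a13 and Slc22a6, while 6 passed an adjusted p lower and 2, Cubn (0.32) and Slc5a12 (0.42), passed higher, and the list median was -0.16. Cubn and Slc5a12 were named after their values were seen. Slc34a1 was the most abundant. Markers of the loop of Henle, whose thick limb is also rich in mitochondria, had 3 of 5 passing an adjusted p higher (median 0.32, none called), and the 4 distal tubule markers had a median of 0.18. Other lists moved in kidney too, where 11.5% of all genes were called and 3.81% called lower. Of 7 tested adipocyte markers 5 were called higher and 1 lower (median 1.27). Called higher were also 4 of 6 tested osteoblast and stroma markers (median 0.64), 2 of 7 tested tubular injury markers (median 0.72) and 2 of 6 endothelial markers (median 0.35). Podocyte markers, led by Podxl, summed to 296 to 301 CPM with vehicle and 435 to 529 with oxaliplatin, with 4 of 5 called higher and all 5 passing an adjusted p. Of 10 tested monocyte and macrophage markers, led by Csf1r, 5 were called lower and 1 higher, with a mean sum of 132 CPM with vehicle and 78.9 CPM with oxaliplatin. Nuclear-retained RNAs, led by Malat1, summed to 5513, 7783, 6719, 7327 and 5577 CPM with vehicle and 5863, 7118, 6972, 9024 and 9855 CPM with oxaliplatin, which overlap, and 2 of 6 were called higher. The part of these lists in the kidney values was not tested.

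In marrow the medians of complexes I, III, IV and V were 0.19, 0.25, 0.12 and 0.16 on the log2 scale, and 5 of 36, 1 of 9, 3 of 15 and 2 of 16 genes passed an adjusted p, all higher. Over all marrow genes 16.3% passed in the higher direction, so these counts lay near the background. Complex I sums were 1381, 1443, 1814, 1387 and 1303 CPM in oxaliplatin mice, against 1178 to 1519 with vehicle. Complex V sums were 2126, 2432, 3370, 2337 and 2016 CPM, against 1855 to 2497. In complexes I, IV and V mouse 3 alone lay above the vehicle range, and in complex III mice 3 and 4 did. The 11 mitochondrial mass genes had 8 passing an adjusted p higher, of which Hspd1 (0.84) and Hspa9 (0.80), both mitochondrial chaperones, were called. Summed over that list, the oxaliplatin mice had 1218, 1494, 2148, 1437 and 1204 CPM, against 990 to 1245 with vehicle. Mouse 3, the lowest in mitochondrially encoded messenger RNA, was the highest in this sum. Mitochondrial ribosomal proteins summed to 1616, 1845, 2516, 1859 and 1590 CPM in those mice, against 1500 to 1818, with Mrps6 (2.25), Mrpl17 (0.74) and Mrpl36 (0.68) called higher and 11 of 77 passing an adjusted p higher. Of 9 mitophagy genes, Bnip3 was called higher (2.14) and Fbxo7 (-1.5), Optn (-1.26) and Bnip3l (-0.99), the last of which clears mitochondria from maturing red cells, were called lower, against 23.3% of all marrow genes called and 11.8% called lower.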

How the data were processed

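Counts per gene in 20 libraries (4 groups of 5) were analysed. The authors made the deposited raw counts from reads aligned with STAR against Ensembl release 101 (mouse, GRCm38), for which they, in Partek Flow, counted reads that aligned uniquely and to 1 gene. The submitters' processing notes also name bcl2fastq, featureCounts and Salmon. Strand use is not given in the sources used here. The sample records describe ribosomal RNA depletion with random hexamers, whereas the methods name a SMARTer kit, and marrow and kidney RNA were extracted by different protocols. The study names both sexes and no label gives sex per library, but Y-linked genes summed to 77.5 to 173 CPM in all 20 libraries, so the Y-linked covariate separated no libraries without them.

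From each table, 287 lines that repeated an identifier and its counts were dropped, as was 1 incomplete line. Members and gene lists were chosen with earlier results of these data known. In each tissue genes passed filterByExpr at a minimum count of 10, were scaled by TMM and tested two-sided with edgeR 4.0.16 (robust quasi-likelihood, R 4.3.3, limma 3.58.1), treatment as the only term, with Benjamini-Hochberg adjustment over all tested genes. The interaction was fitted to all 20 libraries. P-values measure the spread between these libraries. Named were 8 members fixed by role with per-library values (ribosomal RNAs, mt-Nd6, mt-Co1, mt-Cytb, mt-Nd1, mt-Nd5 and mt-Atp8), called members, and from each nuclear list for mitochondrial functions the called genes of largest change, at most 3 in each direction, if their mean log2 CPM reached 1, plus Tfam, Polrmt, Lrpprc and Ppargc1a. mt-Tp and the ratios were added after values were seen. The other lists were markers of cell types and RNA classes, given as sums or as counts of called genes where they moved with the members.

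Lengths, positions and sequences came from GENCODE mouse release 21 (55141 of the identifiers matched), and nuclear copies from BLAST+ searches of its transcripts, with exact matches counted over windows of 50 bases. No 2 libraries of a group agreed within sampling noise (lowest chi-square per degree of freedom 7.51). The alternatives were DESeq2 1.42.0, median ratio size factors, library size alone, scaling without the mitochondrial rows, hemoglobin rows left out, a filter of 1 count or of 10 counts in each library, the replicate number as a block, Y-linked expression as a covariate, thresholds of 2-fold or of an adjusted p alone, testing against 1.5-fold itself, and omission of single libraries. Scripts were first tested on simulated data. Figures were drawn with Python and matplotlib.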

Additional observations from a re-analysis of the deposited data

Results flagged for a closer look

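Of 94 groups of 5 libraries examined (levels, counts and ratios of the members), 6 held 1 library whose gap to the nearest other exceeded Dixon's 95% critical value of 0.71 times the group's range. Chance alone gives about 1 in 20 such groups. Oxaliplatin kidney mouse 4 accounted for 3 of them: mt-Co1 at 15465 CPM against a median of 13021 in the other 4, mt-Atp8 at 16.2 CPM against 5.82, and a ratio of mt-Rnr1 to mt-Rnr2 counts of 8.19 against 4.05. Vehicle kidney mouse 2 had a ratio of mt-Nd6 to mt-Cytb counts of 0.0222 against 0.015. In vehicle marrow, mouse 4 had mt-Atp8 at 4.96 CPM against 3.93, and mouse 2 had 39 counts of mt-Tm, the methionine transfer RNA, against a median of 0. Oxaliplatin marrow mice 2 and 3, being a pair, did not stand out by a gap of a single library.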

How the results depend on the processing

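Limits: levels of the 5 messenger RNAs with near-complete nuclear copies are uncertain, and those of mt-Nd4 and mt-Co1 in part. Ribosomal RNA levels may depend on its removal, whose kit and targets are unclear, and transfer RNAs other than mt-Tp were too scarce to test. Over the alternatives that kept all libraries, or left out marrow mice 2 and 3, mt-Rnr1 in marrow ran from -1.56 to -1.42 and mt-Rnr2 from -1.26 to -1.10, and mt-Rnr2 in kidney from -1.24 to -1.09 on the log2 scale. Where directions reversed or counts moved, the cause was not tested.

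In marrow, leaving out oxaliplatin mice 2 and 3 (chosen after seeing the data) gave log2 fold changes of 0.12 for mt-Nd1, 0.22 for mt-Nd2, 0.08 for mt-Nd3, 0.03 for mt-Nd4, 0.10 for mt-Nd5, 0.10 for mt-Nd6, 0.03 for mt-Cytb and 0.41 for mt-Tp, with a member median of 0.00. With library size alone mt-Tp was 0.03, and without single libraries it ran from -0.32 to 0.11. In kidney, mt-Co1 was 0.13 with library size alone, 0.02 with at least 10 counts in every library and -0.05 to 0.02 without single libraries. Kidney mt-Nd6 was -0.06 with the Y-linked covariate and -0.02 to 0.18 without single libraries. For the interaction, mt-Nd4 (0.01) was 0.00 with DESeq2, with median ratio size factors and when scaled without the mitochondrial rows, -0.02 without hemoglobin rows, -0.01 with no filter, -0.05 with the Y-linked covariate, -0.44 without mice 2 and 3 and -0.20 to 0.20 without single libraries. Interaction mt-Rnr2 (-0.03) was 0.02 with library size alone, 0.08 with at least 10 counts in every library, 0.05 without mice 2 and 3 and -0.28 to 0.11 without single libraries, and mt-Nd2 ran from -0.38 to 0.04.

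Genes called in marrow numbered 2730 when tested against 1.5-fold and 3231 beyond a fold change of 2, and in kidney 454 and 941, with 5679 at an adjusted p alone. Kidney members passing an adjusted p numbered 7 with library size alone and 1 when tested against 1.5-fold. Kidney members called numbered 3 with the Y-linked covariate (mt-Rnr1 at -0.84 and mt-Nd3 at -0.61 joined), 11 at an adjusted p alone and 1 to 5 without single libraries, 5 being without oxaliplatin mouse 4 (mt-Rnr1, mt-Rnr2, mt-Atp8, mt-Co3 and mt-Nd3). Marrow members called numbered 2 to 3 without single libraries. Interaction members called numbered 1 with at least 10 counts in every library (mt-Rnr1, 1.03), 3 without mice 2 and 3, and 0 to 1 without single libraries. With TMM scaling the messenger share was 0.642% in vehicle marrow and 3.87% in vehicle kidney, and mt-Nd5 in vehicle kidney was 2919 CPM per kilobase with library size alone.

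Replicate numbers did not pair the libraries (correlation of same-numbered deviations from -0.154 to 0.228). With the replicate block, 4968 genes and 2 members were called in marrow, 2017 and 1 in kidney, where 9 members passed an adjusted p, and 6710 and 0 for the interaction.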
